A study of Mus musculus with 2 samples.

Results

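The oxidative phosphorylation genes of neonatal mouse heart cells were described here across cell types and across 2 parts of the heart. Members were the genes whose symbols begin as those of complex I (Nduf followed by a, b, c, s or v and a number), complex III (Uqcr), cytochrome c oxidase (Cox4 to Cox8) or ATP synthase (Atp5), together with the protein-coding genes of the mitochondrial genome (mt-Nd, mt-Cyt, mt-Co and mt-Atp). Ndufa4l2 and names that mark pseudogenes or opposite-strand transcripts were left out. This gave 92 of the 28692 genes in the matrices, 79 of them nuclear and 13 mitochondrially encoded. The nuclear members comprised 35 genes of complex I, 8 of complex III, 19 of complex IV and 17 of complex V. The 17 were taken by symbol and include Atp5s and Atp5sl, which RefSeq names Dmac2l and Dmac2 and not as ATP synthase genes. The mitochondrial members comprised 7, 1, 3 and 2 genes of the same complexes.

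Both libraries came from C57Bl6 pups of both sexes at 3 days of age. Heart bases of 15 animals were pooled for each library, separated into a dorsal and a ventral piece, kept as adherent cultures for 5 days and detached with trypsin before single-cell capture with the 10x 3′ chemistry. There was 1 dorsal and 1 ventral library, so domain, library and culture cannot be told apart, and no test between the domains exists. Intervals given below are 95% intervals for counting error only, and every cell had been in culture. Barcodes with at least 8000 UMIs (unique molecular identifiers, each marking 1 captured transcript) and at most 20% of UMIs from mt- genes were kept, which left 8926 dorsal and 10649 ventral cells with medians of 22774 and 21462 UMIs. Of the barcode sequences, 22 occurred in both libraries. Levels are given in CPM, the UMIs of a gene per 1000000 UMIs of the library or class, and ratios as log2 of dorsal over ventral CPM. A 3′ count is not divided by transcript length, so comparisons of level are made for 1 gene between libraries or cell types, and the few rankings or shares over genes are of counted UMIs.

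The respiratory chain passes electrons from NADH and succinate to oxygen through complexes I to IV in the inner mitochondrial membrane, and the proton gradient this builds drives ATP synthesis by complex V. The mitochondrial genome encodes core, membrane-embedded subunits of complexes I, III, IV and V, while all other subunits come from nuclear genes, so each of these complexes needs both genomes. Cardiac muscle is among the tissues richest in mitochondria, and striated muscle and brown fat replace some ubiquitous subunits of cytochrome c oxidase by tissue isoforms. The transcription factors NRF1, the ETS factor GABP and YY1 are textbook activators of nuclear respiratory genes, and MEF2 and E-box factors of muscle genes.

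Promoters are shown because the members include ubiquitous and tissue-restricted genes. Promoter windows (250 bases before to 50 after the start) from RefSeq on GRCm38.p6 were matched for 66 of the 79 nuclear members. The NRF1 core GCGCATG, read like the other motifs on both strands, was found in 12 of the 66 (18.2%) against 4.04% of the 27025 windows of all genes. The ETS motif CCGGAAG was found in 13 (19.7% against 9.12%), and the YY1 core ATGGCGG in 10 (15.2% against 4.19%). The E-box CAGCTG was found in 6 (9.09% against 16.1%), and the MEF2 motif in 0 of 66 against 3.26%. The NRF1 core was found in Ndufa11, Ndufb6, Ndufb8, Uqcr11 and Atp5l among others, and 20 of the 66 held the NRF1 or the ETS motif (30.3% against 12.5%). Neighbouring matches can overlap, as NRF1 cores on opposite strands do in Cox6a1. Of the tissue isoforms of complex IV with a window (Cox7a1, Cox8b, Cox6b2 and Cox7b2), 0 held the NRF1 or ETS motif and Cox8b held the E-box, and 4 windows are too few to compare with the other members. A match is a description of letters and not evidence of binding.

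Shown here, 5′ to 3′ on the gene's own strand and ending just before the start, are the promoters of the ubiquitous isoform Cox6a1 (chr5:115348959-115349208, minus strand), the muscle isoform Cox8b (chr7:140900447-140900696, minus strand), and the 2 ubiquitous members with the lowest and the most regular dorsal ratio below, Ndufa4 (chr6:11907451-11907700, minus strand) and Cox7a2l (chr17:83514334-83514583, minus strand). Capitals mark NRF1, ETS or E-box motifs, and a sequence without capitals held none of the motifs in these 250 bases. Starts are those of RefSeq. By GENCODE positions the Cox7a2l gene spans chr17:83501918-83517330, so its window lies inside the annotated gene.
Cox6a1: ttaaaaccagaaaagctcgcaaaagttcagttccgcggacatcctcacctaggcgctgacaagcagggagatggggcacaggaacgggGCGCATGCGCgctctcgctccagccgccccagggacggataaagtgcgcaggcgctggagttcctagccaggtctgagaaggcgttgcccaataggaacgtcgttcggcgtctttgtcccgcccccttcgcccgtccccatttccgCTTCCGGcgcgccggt
Cox8b: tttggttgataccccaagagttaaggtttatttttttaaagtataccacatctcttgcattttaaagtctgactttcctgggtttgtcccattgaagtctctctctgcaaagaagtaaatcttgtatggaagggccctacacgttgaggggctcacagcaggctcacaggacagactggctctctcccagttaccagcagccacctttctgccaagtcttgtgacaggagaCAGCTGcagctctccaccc
Ndufa4: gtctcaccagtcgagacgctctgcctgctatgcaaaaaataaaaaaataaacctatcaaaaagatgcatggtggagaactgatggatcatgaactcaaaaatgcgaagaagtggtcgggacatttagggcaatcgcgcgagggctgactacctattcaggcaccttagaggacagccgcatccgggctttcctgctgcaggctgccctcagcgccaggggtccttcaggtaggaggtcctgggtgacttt
Cox7a2l: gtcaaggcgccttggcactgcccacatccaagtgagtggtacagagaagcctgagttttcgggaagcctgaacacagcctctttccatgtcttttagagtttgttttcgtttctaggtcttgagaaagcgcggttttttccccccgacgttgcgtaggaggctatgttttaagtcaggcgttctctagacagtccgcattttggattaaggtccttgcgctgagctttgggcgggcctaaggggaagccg
In Cox6a1 the capitals are NRF1 cores on both strands that overlap, followed by an ETS motif on the opposite strand, and in Cox8b a single E-box.

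Over all cells, both sets were lower in the dorsal library. The 79 nuclear members summed to 20345 CPM dorsally and 24153 CPM ventrally, a log2 ratio of -0.25 (interval -0.249 to -0.246), which is 1.19-fold higher ventrally. The 13 mitochondrial members summed to 31141 CPM dorsally and 41677 CPM ventrally, a log2 ratio of -0.42 and 1.34-fold higher ventrally. The difference was therefore wider for the mitochondrial than for the nuclear set. Scaling the libraries by TMM, which moved the median of all genes to -0.11, gave -0.36 and -0.54. RNA outside cells did not show the same picture in both sets: in barcodes with 10 to 100 UMIs, taken as free RNA, the nuclear set stood at 23026 CPM dorsally and 22294 CPM ventrally, while the mitochondrial set stood at 39903 and 80583 CPM. The part of free RNA in the mitochondrial difference was not tested.

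Of the nuclear members, 71 reached 20 CPM in either library, and 62 of them were higher ventrally, against 48.7% of the 5821 genes at that level. Their median log2 ratio was -0.22, beside 0.01 for all genes. Counting intervals lay below 0 for 60 members and above 0 for 5, against 2595 and 2725 of the 5821 genes at that level. The shift was broad and shallow: 1 member was at least 2-fold higher dorsally (background 4.69%) and 0 were at least 2-fold higher ventrally (background 5.12%). That 1 member, Cox6a2, reached 20 CPM in the dorsal library only. By complex, summed nuclear ratios were similar, at -0.22 for complex I, -0.26 for complex III, -0.28 for complex IV and -0.24 for complex V.

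**Figure D1:**
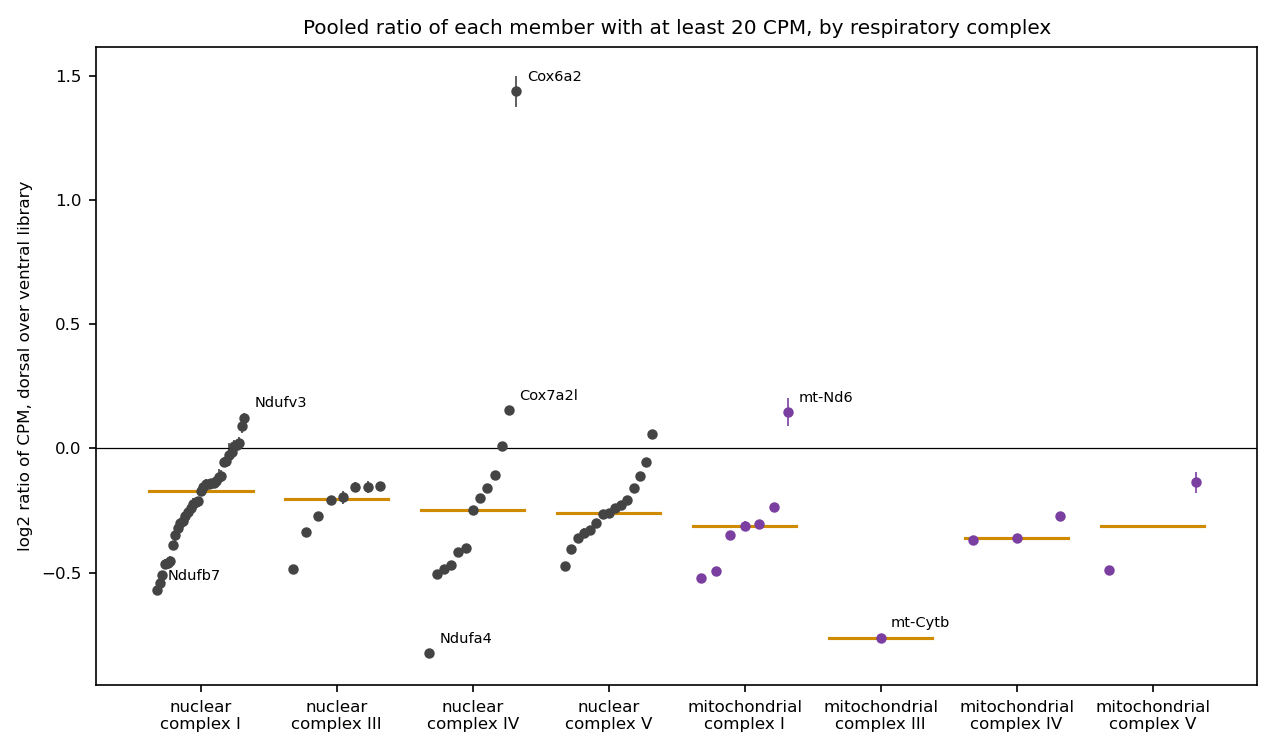
Log2 ratio of dorsal over ventral CPM (y axis) of each member with at least 20 CPM in either library, grouped by complex and genome (x axis), with 95% counting intervals as bars and the group median as a line. Most points lie between -0.6 and 0, with Ndufa4 and mt-Cytb lowest and Cox6a2 at 1.44.

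Within complex I the members were not uniform. The 7 nuclear core subunits, which carry the flavin and iron-sulphur clusters that move the electrons, had a median ratio of -0.05, while the 28 other subunits had -0.23. Among the core genes, Ndufv1, which holds the NADH-binding site, stood at 80.6 CPM dorsally and 75.7 ventrally (0.09), and Ndufs3 at 107.9 and 106.3 (0.02). The accessory subunit genes Ndufb7 (150.3 and 223.5 CPM, -0.57), Ndufa11 (206.2 and 300.4, -0.54) and Ndufs5 (225.8 and 321.7, -0.51) lay at the low end. Ndufv3, an accessory subunit of the NADH-oxidising arm, was on the other side at 211.9 and 194.5 CPM (0.12). The core and the other subunits overlapped, with ranges of -0.23 to 0.09 and -0.57 to 0.12. By class the core median was above that of the others in 5 of the 6 classes described below (0.17 and -0.14 in mural-like cells, for example) and below it in macrophage-like cells (-0.30 and -0.27). Across the 71 members the ratio was only loosely related to the length of the annotated exons (Pearson r = 0.19, Spearman rho = 0.35), beside 0.00 and 0.08 across 5818 genes, and these are descriptions over genes that share both libraries.

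The lowest ratio of any nuclear member was that of Ndufa4, now counted as a subunit of complex IV, at 478.0 CPM dorsally and 847.3 ventrally (-0.83). Its name is shared by Ndufa4l2, a hypoxia-induced relative outside the set, which went the other way at 140.4 and 6.35 CPM (4.47). Within complex IV Cox5a, a matrix-side subunit, followed Ndufa4 at 407.5 and 578.8 CPM (-0.51), and Cox7a2 at 301.2 and 421.5 (-0.48). The 5 nuclear members with the highest CPM over both libraries were Cox4i1 (955.4 and 1066, -0.16), Cox8a (756.7 and 869.8, -0.20), Cox7c (702.2 and 698.0, 0.01), Ndufa4 and Cox6c (542.4 and 724.4, -0.42). Cox7c therefore did not differ between the libraries beyond counting error, and Ndufa4 had the widest ratio of the 5.

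The 3 genes for the same c-ring protein of ATP synthase had different ratios: Atp5g1 stood at 374.5 and 448.5 CPM (-0.26), Atp5g3 at 204.6 and 270.8 (-0.40) and Atp5g2 at 521.2 and 541.9 (-0.06). Atp5a1, which encodes the alpha subunit of the catalytic head, was slightly higher dorsally (317.7 and 305.3 CPM, 0.06), while Atp5b for the beta subunit was at -0.23. Under TMM scaling Atp5a1, Cox7c, Ndufs3 and Ndufv1 changed sign.

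Of the 13 mitochondrial members, 12 were higher ventrally. The lowest ratio was that of mt-Cytb, the only mitochondrial subunit of complex III, at 2481 and 4208 CPM (-0.76). Members of complex I followed, with mt-Nd4 at 1844 and 2648 CPM (-0.52) and mt-Nd1 at 1644 and 2316 (-0.49), and mt-Atp6 of ATP synthase at 5385 and 7564 (-0.49). The 3 catalytic-core genes of cytochrome c oxidase were closer together: mt-Co1 at 5328 and 6435 CPM (-0.27), mt-Co2 at 5039 and 6503 (-0.37), and mt-Co3 at 6767 and 8692 (-0.36). The others were mt-Nd2 (-0.35), mt-Nd4l (-0.31), mt-Nd3 (-0.30), mt-Nd5 (-0.23) and mt-Atp8 (-0.14). These genes are read from long polycistronic transcripts, yet neighbours did not share 1 ratio. mt-Nd6, the only member encoded on the other strand, was the exception in direction at 22.7 and 20.5 CPM (0.15). Some borders overlap, mt-Atp8 and mt-Atp6 by 43 bases, mt-Nd4l and mt-Nd4 by 7 and mt-Nd5 and mt-Nd6 by 14 on opposite strands, so reads there may be assigned to either gene, and the counting of strand is not given in the sources used here.

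Cells were clustered without the members and all other mt- genes, and clusters were named from marker genes. Of the 8289 dorsal and 9881 ventral cells left after removal of likely doublets, 4733 and 6674 were fibroblast-like, 960 and 958 mesothelial-like, 561 and 1037 mural-like, 429 and 167 Schwann and glial-like, 157 and 111 macrophage-like and 98 and 120 endothelial-like. These 6 classes were compared. Cardiomyocyte-like cells numbered only 28 and 30, although the tissue is heart, and 37 skeletal muscle-like cells were found in the dorsal library only. Fibroblast-, mesothelial- and mural-like cells of the 2 libraries lay mostly in different clusters (fibroblast-like clusters 0, 1, 3 and 10 dorsally and 12, 15, 18 and 19 ventrally; mesothelial-like 8 against 17 and 21; mural-like 11 and 13 against 22 and 23). Dorsal cluster 8, which holds 951 of the 960 dorsal mesothelial-like cells, and ventral cluster 23, which holds 406 mural-like cells, had no marker of their class among their 10 leading genes. The name of cluster 8 is marginal: mesothelial-like cells carried 595.6 CPM of summed mesothelial markers dorsally and 2345 ventrally, against 15.3 and 15.4 in fibroblast-like cells, and with a minimum of 15000 UMIs the cluster with the same leading genes was named fibroblast-like.

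The nuclear set was higher ventrally in all 6 classes compared. Fibroblast-like cells had 19686 CPM dorsally and 23534 ventrally (-0.26), mesothelial-like cells 20057 and 26880 (-0.42), and macrophage-like cells 21753 and 26254 (-0.27). Schwann and glial-like cells had 22548 and 25882 CPM (-0.20), mural-like cells 21900 and 24174 (-0.14) and endothelial-like cells 23047 and 23463 (-0.03). Endothelial-like cells thus came closest to equality. Counted by member, 65 of 70 nuclear members at the minimum were higher ventrally in fibroblast-like cells (49.3% of all genes), 66 of 71 in mesothelial-like (54.1%), 65 of 71 in macrophage-like (60.3%) and 60 of 70 in Schwann and glial-like cells (42.5%). In mural-like cells it was 48 of 71 (41.5%), and in endothelial-like cells 41 of 70, near the 46.3% of all genes. Per cell, 95.4% of dorsal fibroblast-like and 99.5% of dorsal mesothelial-like cells lay under the ventral median of their class, against 57.1% of dorsal endothelial-like cells. Summed cardiomyocyte marker levels moved with the class difference in fibroblast-like cells, at 107.3 CPM dorsally and 890.3 ventrally, and in mesothelial-like cells, at 206.5 and 864.1. Their part in the result was not tested.

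**Figure D2:**
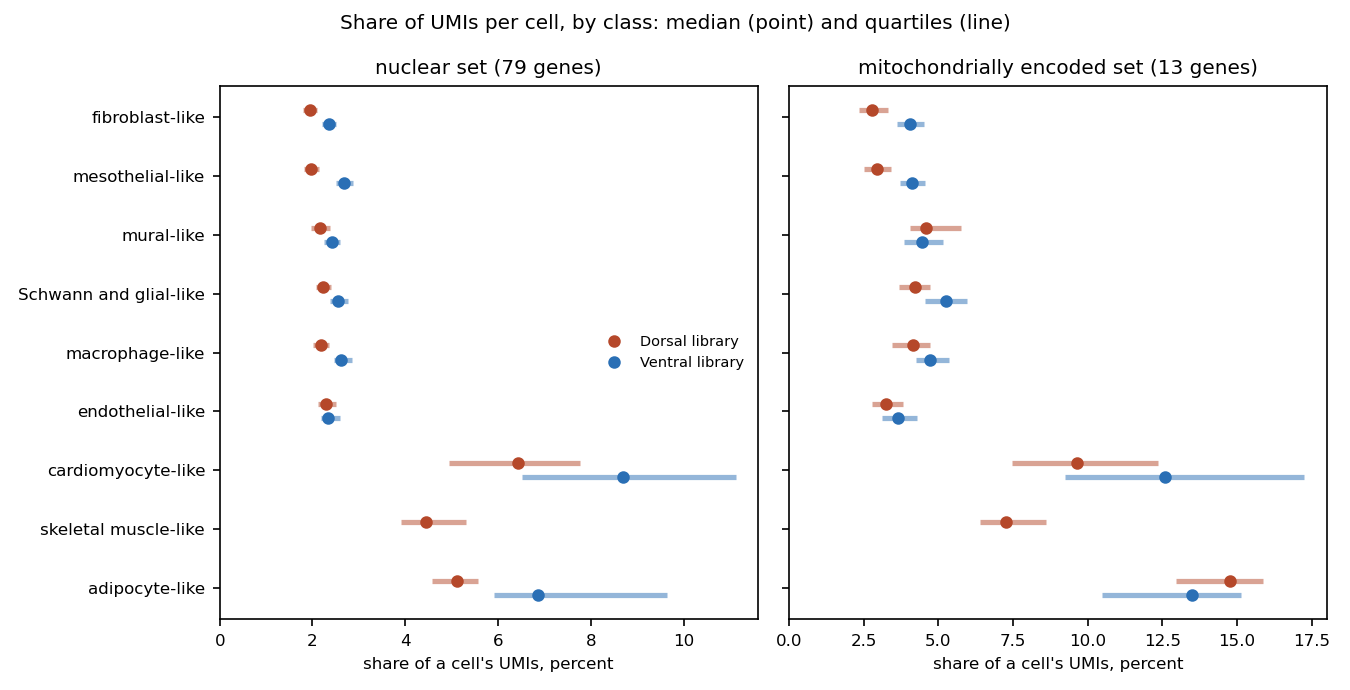
Share of each cell's UMIs from the nuclear set (left) and the mitochondrially encoded set (right), in percent on the x axis, for each class and library, with the median as a point and the quartiles as a line. Dorsal medians lie left of ventral ones in the nuclear panel, and muscle-like and adipocyte-like cells stand far to the right.

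The mitochondrial set followed in 5 of the 6 classes, with ratios of -0.55 in fibroblast-like cells (27848 and 40716 CPM), -0.48 in mesothelial-like (29667 and 41360), -0.32 in Schwann and glial-like (41900 and 52241), -0.26 in macrophage-like (41111 and 49197) and -0.18 in endothelial-like cells (32947 and 37235). In fibroblast-like cells the mitochondrial ratio was well under the nuclear one, while in macrophage-like cells both were nearly equal. Mural-like cells had 49751 CPM dorsally and 45520 ventrally (0.13). That sign rests on cluster 13, 109 dorsal cells led by the smooth muscle genes Des and Actg2 with 71498 CPM. Without that cluster, a setting added once these values had been seen, the mural-like ratio was -0.02 for the mitochondrial and -0.20 for the nuclear set. Ventral cluster 23 had the lowest mitochondrial level of the 4 mural-like clusters (40026 CPM). Without it the mitochondrial ratio was 0.03, and without both clusters -0.12.

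At the level of single members, 70 nuclear genes reached the minimum in all 6 classes. Of these, 27 were higher ventrally in every class, against 14.3% of 3984 genes, and 27 more in all classes but 1 (16.4% of all genes). The 27 include Ndufa4, Cox5a, Cox6b1, Cox6c, Cox7a2, Ndufb7, Ndufs5 and Atp5b. Direction was counted by sign alone. In endothelial-like cells the counting intervals of Ndufa4 (-0.106 to 0.100), Cox6b1, Cox6c, Cox7a2, Ndufb7 and Ndufs5 included 0. Those of Cox5a and Atp5b lay below 0 there. Among 12 mitochondrial members at the minimum, mt-Cytb and mt-Nd1 were higher ventrally in every class and 9 in all classes but 1.

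Cox7a2l was the 1 nuclear member higher dorsally in all 6 classes, a pattern held by 14% of all genes. It encodes a relative of Cox7a that joins complexes III and IV into supercomplexes, and C57BL/6 mice are known to carry an allele that shortens the protein. Its CPM was 490.5 dorsally and 465.0 ventrally in fibroblast-like cells (0.08), 461.1 and 364.7 in mesothelial-like (0.34) and 510.1 and 336.8 in mural-like cells (0.60). In Schwann and glial-like cells it was 396.4 and 327.6 (0.27), in macrophage-like cells 393.8 and 301.7 (0.38) and in endothelial-like cells 445.2 and 358.6 (0.31). All 6 counting intervals lay above 0.

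Ndufa4 showed the opposite pattern, and its size varied by class. It stood at 568.7 CPM dorsally and 1143 ventrally in mesothelial-like cells (-1.01) and at 433.6 and 796.3 in fibroblast-like cells (-0.88), and the ratio was -0.71 in macrophage-like, -0.50 in mural-like and -0.41 in Schwann and glial-like cells. In endothelial-like cells it stood at 650.2 and 651.5 CPM, a ratio of -0.00. In mesothelial-like cells Ndufa4 and mt-Cytb (2211 and 4565 CPM, -1.05) were the members at least 2-fold higher ventrally (background 6.45%). Against ventral fibroblast-like cells, a comparison added because the name of dorsal cluster 8 is marginal, that cluster was at -0.23 for the nuclear and -0.46 for the mitochondrial set, at -0.49 for Ndufa4 and at -0.85 for mt-Cytb, so the 2-fold differences depend on the name. mt-Cytb itself ranged from -0.90 in fibroblast-like and -0.80 in macrophage-like cells to -0.03 in mural-like cells. Ndufv3 was higher dorsally in mural-like (275.2 and 181.7 CPM, 0.60) and endothelial-like cells (175.4 and 117.3, 0.58). It was lower in macrophage-like (-0.16) and in Schwann and glial-like cells (-0.20).

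**Figure D3:**
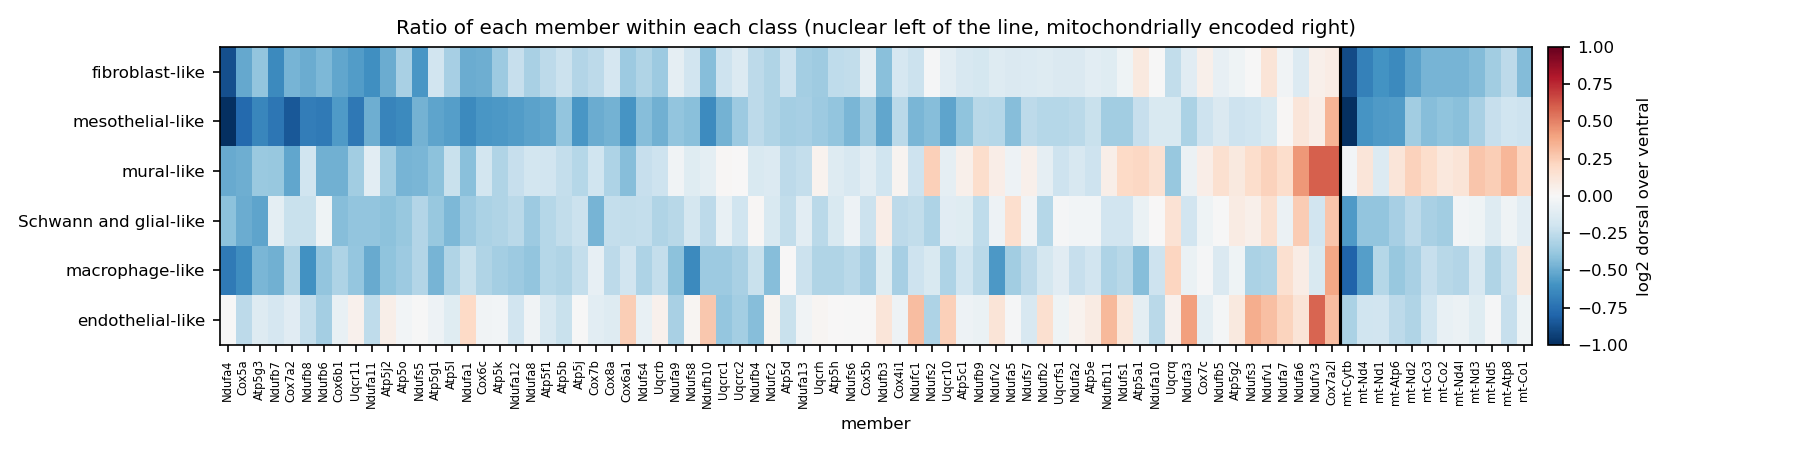
Log2 ratio of dorsal over ventral CPM (colour, from -1 to 1) of each member at the minimum in all 6 classes (columns) within each class (rows), nuclear members left of the line. Blue prevails in the fibroblast-like and mesothelial-like rows, the endothelial-like row mixes both colours among the nuclear members, most mitochondrial squares of the mural-like row are red, and Cox7a2l is the column that is red in all 6 rows.

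Cox6a2 is the striated-muscle isoform of a regulatory subunit of complex IV. It was the 1 member at least 2-fold higher dorsally over all cells, at 31.9 CPM dorsally and 11.8 ventrally (1.44). It reached 20 CPM in the dorsal library only, so its direction there follows from the filter. Of its dorsal UMIs in cells left after doublet removal, 31.1% came from fibroblast-like and 31.0% from cardiomyocyte-like cells. Skeletal muscle-like cells held 17.2% and mesothelial-like cells 11.2%. Of its ventral UMIs 55.1% came from fibroblast-like and 34.5% from cardiomyocyte-like cells. Without all muscle-like cells, a setting added once the values were known, it stood at 16.6 and 7.98 CPM (1.05). With the classes present on both sides weighted by their mean shares, which leaves out the skeletal muscle-like cells, the ratio was 0.95 and no longer 2-fold; this setting too was added later. Outside muscle Cox6a2 reached 20 CPM in macrophage-like cells, at 31.8 and 2.87 CPM (3.47, background 3.3%). It also did in mesothelial-like cells, at 27.4 and 3.80 CPM (2.85, background 5.16%). In both classes it reached 20 CPM on the dorsal side only, so these directions follow from the filter. Below that level it was higher dorsally in fibroblast-like (15.96 and 9.92, 0.69) and mural-like cells (5.53 and 2.63, 1.07) and in endothelial-like cells, with 17 UMIs dorsally and 0 ventrally. In Schwann and glial-like cells it was lower dorsally (4.71 and 10.8 CPM, -1.20). After thinning every cell to 8000 UMIs, 15.3% of dorsal and 1.80% of ventral macrophage-like cells held a Cox6a2 UMI, and 14.3% and 1.88% of mesothelial-like cells, against 2.04% and 0% of endothelial-like cells. Unthinned shares in macrophage-like cells were 43.9% and 7.21%, at median depths of 39739 and 25914 UMIs. Summed cardiomyocyte markers were at 40.3 CPM dorsally and 157.4 ventrally in macrophage-like cells and at 206.5 and 864.1 in mesothelial-like cells. The 8 skeletal muscle markers were higher dorsally, like Cox6a2, at 23.3 and 15.0 CPM in macrophage-like and at 15.4 and 3.39 in mesothelial-like cells, and their part in the result was not tested. Free RNA held Cox6a2 at 31.3 CPM dorsally and 19.2 ventrally. On the opposite strand Cox6a2 overlaps Itgad, of which 0 UMIs were counted in the macrophage-like cells of either library. Since the strand setting of the counting is not given in the sources used here, reads of the 2 genes may not be told apart, and the Cox6a2 values are uncertain in that respect.

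Cox4i2 is the isoform of the largest nuclear subunit known from lung and from oxygen-sensing cells. It was highest in dorsal mural-like cells at 22.3 CPM, against 7.18 in ventral ones (1.64, background 5.47%). Only the dorsal value reached 20 CPM, so this direction follows from the filter. With cells thinned to 8000 UMIs, 15.2% of dorsal and 5.21% of ventral mural-like cells held a Cox4i2 UMI. Its ubiquitous partner Cox4i1 was at 1069 and 1052 CPM in the same cells. The other restricted isoforms stayed under 20 CPM over all cells. Cox7a1 was at 4.26 and 2.37 CPM, Cox8b at 4.25 and 1.98 and Cox6b2 at 8.75 and 5.61. Cox7b2 reached 0.118 and 0.0395 CPM, and Cox8c was counted with 0 UMIs dorsally and 1 ventrally. The other 2 members under the minimum, Atp5s and Atp5sl, were at 6.202 and 5.954 and at 9.62 and 6.79 CPM.

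Muscle-like cells had the highest nuclear levels of the named classes with at least 20 cells, and both sets were high together. Cardiomyocyte-like cells had 63178 CPM of the nuclear set dorsally and 82649 ventrally, and 101393 and 118753 CPM of the mitochondrial set. Compared with the other cells of their library, 63 of 74 nuclear members dorsally and 67 of 74 ventrally were at least 2-fold higher, against 14.5% and 14% of all genes. All 13 mitochondrial members were at least 2-fold higher in both libraries. Dorsal skeletal muscle-like cells had 45876 CPM of the nuclear and 81573 of the mitochondrial set, with 49 of 73 nuclear members at least 2-fold higher (17.7% of all genes). Cox7a2l had the lowest ratio of the nuclear members in cardiomyocyte-like cells, at 395.2 CPM in dorsal cardiomyocyte-like cells against 475.2 in other dorsal cells, and at 425.8 against 427.0 ventrally.

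Isoform use set these few cells apart. Cox6a2 reached 2739 CPM dorsally and 1436 ventrally in cardiomyocyte-like cells, which was 125.1-fold and 180.0-fold the level of the other cells, and made up 88.5% and 73.6% of all Cox6a UMIs. In skeletal muscle-like cells it reached 800.8 CPM and 85.4% of Cox6a UMIs, and the ubiquitous Cox6a1 stood at 136.6 CPM there against 242.4 CPM in the other dorsal cells. In fibroblast-like cells the share of Cox6a2 was 6.38% and 3.19%. Every cardiomyocyte-like cell and every skeletal muscle-like cell held a Cox6a2 UMI after thinning, 28, 30 and 37 cells in turn. Cox7a1 was at 470.4 and 395.3 CPM in cardiomyocyte-like cells but at 44.8 in skeletal muscle-like cells. Cox8b was at 332.3 and 306.8 CPM in the former and 229.8 in the latter.

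**Figure D4:**
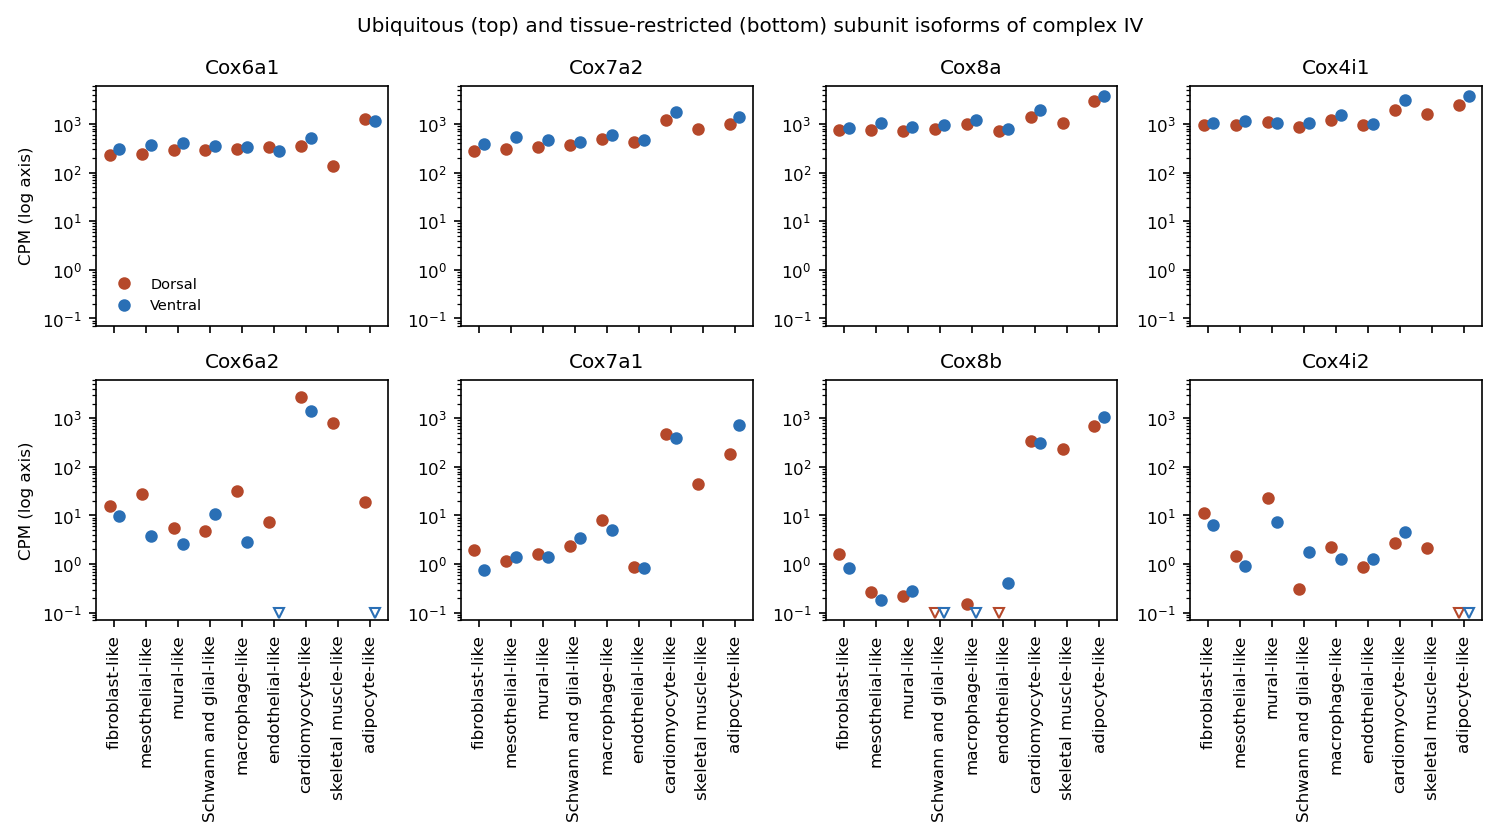
CPM on a log axis (y) of 4 ubiquitous isoform genes (top) and their tissue-restricted partners (bottom) in each class (x) of the dorsal and ventral library. Triangles at the foot mark 0 counted UMIs. Cox6a2, Cox7a1 and Cox8b stand highest in cardiomyocyte-like cells among the classes with over 20 cells, Cox7a1 and Cox8b also in adipocyte-like cells, and the top row varies less.

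A cluster of adipocyte-like cells, 6 dorsal and 7 ventral, carried the members at muscle-like levels: 53551 and 76893 CPM of the nuclear set and 136113 and 128473 CPM of the mitochondrial set. These cells shared Cox8b (674.7 and 1033 CPM) and Cox7a1 (182.9 and 706.3 CPM) with the muscle-like cells, but not Cox6a2, with 3 UMIs dorsally (18.9 CPM) and 0 ventrally. Ucp1, the uncoupling protein of brown fat that lets protons pass without ATP synthesis, was counted with 4 UMIs dorsally (25.2 CPM, interval 6.87 to 64.6) and 47 UMIs ventrally (349.4 CPM, 256.7 to 464.6), against 2 and 3 UMIs in all fibroblast-like cells. With so few cells these values describe the cells captured.

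Across the clusters of at least 50 cells, nuclear levels of cells outside the muscle-like classes ran from 18700 to 25933 CPM dorsally and from 22753 to 27000 ventrally. Mitochondrial levels ran from 26251 to 71498 and from 37235 to 52241 CPM. The sets went together across clusters more in the dorsal library (Pearson r = 0.84 over 13 clusters, cluster 13 among them) than in the ventral one (0.38 over 12), as a description over clusters that share a library.

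**Figure D5:**
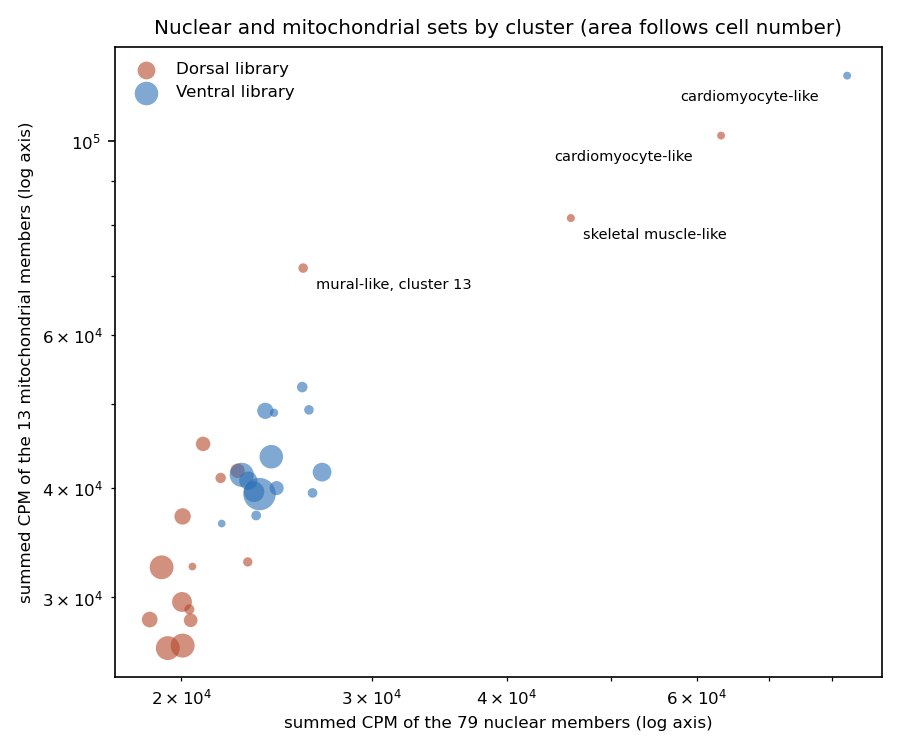
Summed CPM of the nuclear set (x, log axis) against the mitochondrial set (y, log axis) for each cluster with at least 20 cells in a library, coloured by library, with area following cell number. Most ventral clusters lie to the right of most dorsal ones, and muscle-like clusters and mural-like cluster 13 lie above the rest.

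Other genes of the pathway did not all follow. Of all genes at the minimum, 48.7% were higher ventrally and 51.3% dorsally, and the counts below are read against these shares. All 4 genes of complex II, which has no mitochondrial subunit, were higher ventrally (median -0.12), from Sdhd at -0.19 to Sdhc at -0.11. All 8 measured electron and metabolite carriers at the minimum were higher ventrally (median -0.34), among them the heart ATP/ADP exchanger Slc25a4 (724.8 and 1043 CPM, -0.53) and cytochrome c, Cycs (111.0 and 148.4, -0.42). Of 18 assembly factors 13 were higher ventrally (median -0.13), with Cox20 at -0.67. Of 13 genes of the tricarboxylic acid cycle 10 were (median -0.07). In Schwann and glial-like cells 8 of 21 assembly factors were higher ventrally (42.5% of all genes), in macrophage-like cells 16 of 17 (60.3%). For the tricarboxylic acid cycle it was 6 of 13 genes in mural-like cells (41.5%) and 12 of 13 in mesothelial-like cells (54.1%). These were the lowest and highest classes for each list. Of 21 measured genes that copy and read the mitochondrial genome, only 6 reached the minimum, and these 6 were higher dorsally (median 0.33). Among them was Tfam (27.7 and 20.99 CPM, 0.40). The mitochondrial poly(A) polymerase Mtpap (20.8 and 15.6, 0.41) and Mterf3 (20.2 and 16.6, 0.28) reached the minimum in the dorsal library only, so their direction follows from the filter. The count of 6 and its median include both genes. In endothelial-like cells 4 genes of this list were higher dorsally and 4 ventrally (median -0.03). Under the same minimum the other classes had medians above 0, over 3 genes in macrophage-like to 8 in Schwann and glial-like cells. The mitochondrial ribosome leaned ventral with a small median (-0.07): 45 of 70 genes were higher ventrally, and Mrps6 stood at 35.8 and 91.8 CPM (-1.36). By class this ran from 35 of 69 genes in mural-like cells (41.5% of all genes) to 63 of 72 in macrophage-like cells (60.3%). Of the cytosolic ribosomal protein genes, 81 of 83 were higher dorsally (median 0.23). Glycolysis and hypoxia genes were higher dorsally in 13 of 14 cases (median 0.64). Bnip3 stood at 87.4 and 31.7 CPM (1.47), Hk2 at 74.97 and 35.4 (1.08) and Slc2a1 at 56.3 and 27.6 (1.03). By class, 6 of 12 of these genes were higher ventrally in Schwann and glial-like cells (42.5% of all genes, median 0.03). In macrophage-like cells it was 0 of 16 (60.3%). The coactivator Ppargc1a, a known driver of mitochondrial biogenesis, was at 1.85 and 1.22 CPM.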

How the data were processed

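The deposited matrices hold raw UMI counts per gene and barcode, made by the authors with Cell Ranger 3.0.2 and mm10, per the submitters' processing notes. Members and lists were chosen with earlier results of these data known. Barcodes with at least 8000 UMIs and at most 20% mt- UMIs were kept, which hold 92.8% of 246920028 dorsal and 95.6% of 264822916 ventral UMIs. Counts were summed per library or class and divided by all UMIs to give CPM. Ratios of sums carry conditional binomial intervals, levels exact Poisson intervals and shares Clopper-Pearson intervals, all at 95% and for counting error only. No test between domains was possible with 1 library in each, and ratios are listed for genes with at least 20 CPM in either library.

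Classes were made without likely doublets, marked by Scrublet in scanpy 1.11.5. The caller marked 0% of dorsal barcodes by its own threshold, so the 7.14% with the highest scores were taken, beside 7.21% ventrally; pooled values keep these barcodes. Member and mt- genes were kept out of clustering, which took the 2000 most variable genes, 30 components, 15 neighbours per cell and a Leiden resolution of 1. A cluster was named from at least 3 markers, by a scoring rule set after clusters were seen. Named genes were all mitochondrial members, complex IV and Atp5g isoforms, the 6 highest and 6 lowest pooled ratios, every member at least 2-fold apart, the 5 highest levels, and the 3 highest and lowest per class, plus up to 4 per other list; others were chosen after their values were seen. Ratios were tested on simulated counts. Alternatives used TMM from edgeR 4.0.16 and other filters, denominators and clusterings. Positions come from GENCODE on GRCm38, promoters from RefSeq. The NRF1 and YY1 cores searched are shorter than the forms of these motifs searched first, and were chosen after the shares of the longer forms had been seen; both forms were more frequent in member promoters than in all windows.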

Additional observations from a re-analysis of the deposited data

Results flagged for a closer look

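The mitochondrially encoded set in mural-like cells was 0.13 on the log2 scale, dorsal over ventral, while it was below 0 in the 5 other classes compared. The difference between classes was not tested, and it rests on the 109 dorsal cells of cluster 13 (-0.02 without them); without ventral cluster 23 it was 0.03.

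Some barcodes outside the comparisons held more of these genes than the cells. The 9 dorsal barcodes over the limit of 20% mt- UMIs had 55022 CPM of the nuclear set, and the 15 ventral ones 85613 CPM, against 20345 and 24153 CPM in the cells kept. Of these barcodes, 5 and 6 carried at least 5 cardiomyocyte markers.

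In free RNA the mitochondrially encoded set stood at 39903 CPM dorsally and 80583 CPM ventrally, against 31141 and 41677 CPM in the cells.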

How the results depend on the processing

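No paired analysis was possible because each domain has 1 library. The direction of both sets and of the median nuclear member was the same under all 9 alternatives. For the nuclear set (log2 -0.25) the ratio was -0.24 with a minimum of 2000 or of 15000 UMIs, -0.25 with at most 10% mt- UMIs or without barcodes marked as doublets, -0.36 with TMM, and -0.26 with CPM of non-mt- UMIs, the mean of per-cell shares or each class at its mean share. For the mitochondrial set (-0.42) it was -0.41 with 2000 UMIs, -0.46 with 15000, -0.44 with at most 10% mt- UMIs, -0.42 with no mt- limit or without marked doublets, -0.54 with TMM, -0.44 with CPM of non-mt- UMIs, -0.36 with per-cell shares and -0.43 with classes at their mean share. The median nuclear member (-0.22) was at -0.33 with TMM and -0.24 with per-cell shares or classes at their mean share. Counting every member with a UMI raised the number at least 2-fold apart from 1 to 4 (Cox7b2, Cox6a2, Cox8b and Cox8c), and it was 0 with classes at their mean share (Cox6a2 at 0.95), a use of that setting chosen after seeing the data. The nuclear set was higher dorsally in 0 classes under every alternative tried. The mitochondrial set was higher dorsally in 1 class, and in 0 with a minimum of 15000 UMIs or, chosen after seeing the data, without cluster 13 or without clusters 13 and 23. Mesothelial-like cells could not be compared with 15000 UMIs, where the dorsal cluster took the fibroblast-like name, or when a class marker was required among a cluster's 10 leading genes, also chosen after seeing the data. Of 40 named members, 36 kept their sign in all 7 pooled alternatives; Atp5a1, Cox7c, Ndufs3 and Ndufv1 did not. Depth limits the members under 20 CPM and the classes with fewer than 50 cells per library.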
